A study of Homo sapiens with 22 samples.

Results

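The genes described here set the pace of the G1 phase of the cell cycle: the D-type cyclins CCND1, CCND2 and CCND3, the E-type cyclins CCNE1 and CCNE2, the cyclin-dependent kinase (CDK) inhibitors CDKN1A, CDKN1B, CDKN1C and CDKN2B, and the transcription factor MYC. They were chosen by name with earlier results of these data known, so their calls beside those of all genes describe and do not test enrichment. In all, 10 genes were listed. Of these, 9 had a row among the 20668 gene symbols of the RNA-sequencing (RNA-seq) tables and CDKN2B was not analysed here. A filter on low values, which required an RPKM (a read count scaled by transcript length and by sequencing depth) of 0.5 in at least 2 samples, kept 12713 genes for testing. It kept 8 of the listed genes and left out CCND2, whose values are given without a call.

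All 10 RNA-seq samples came from MDA-MB-231, a human triple-negative breast cancer (TNBC) cell line that carries a mutant p53, grown beforehand in steroid-depleted medium. Cells received vehicle, dexamethasone (Dex, a synthetic agonist of the glucocorticoid receptor, GR) or compound A (CpdA, a non-steroidal GR ligand). Dex was given at 100 nM and CpdA at 10 μM, each for 2 h or 4 h, so the ligands were compared at matched times but at different doses. Each of the 5 groups held 2 samples, and both vehicle samples served as the control for both times. The labels give no time for them, but the headers of their tables call vehicle replicate 1 a 2 h control and vehicle replicate 2 a 4 h control. The spread of the vehicle pair, which enters every difference from vehicle, thus cannot be told apart from a difference in time. One cell line was used throughout, and nothing measured here separates the number of cells in G1 from the RNA content of each cell.

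In G1, D-type cyclins activate CDK4 and CDK6 and E-type cyclins activate CDK2, and these kinases phosphorylate the retinoblastoma protein and its relatives so that E2F factors can switch on the genes of DNA replication. CDKN1A (p21), CDKN1B (p27) and CDKN1C (p57) form the CIP/KIP family of inhibitors, which bind cyclin and CDK together, whereas CDKN2B (p15) belongs to the INK4 family, which binds CDK4 and CDK6 directly. MYC drives growth and cell cycle entry and is known to repress CDKN1A. In many cell types glucocorticoids slow G1, and CDKN1A and CDKN1C are known glucocorticoid-responsive genes.

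In the build used for coordinates (GRCh37), CCND1 lies on chromosome 11 at 69455924 to 69469242 (plus strand), CCND2 on chromosome 12 at 4378937 to 4414519 (plus), CCND3 on chromosome 6 at 41902672 to 42018095 (minus) and CCNE1 on chromosome 19 at 30302898 to 30315219 (plus). CDKN1A spans chromosome 6 from 36644237 to 36655114 (plus), CDKN1B chromosome 12 from 12838432 to 12875303 (plus) and CDKN1C chromosome 11 from 2904443 to 2907005 (minus), while CCNE2 and MYC are on chromosome 8. The values count reads over whole genes, so exons and untranslated regions were not separated.

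The sequences upstream of CDKN1A and CDKN1B are shown because these sister inhibitors moved in opposite directions in Dex-treated cells. Each is the 250 bases 5′ of the RefSeq transcription start in GRCh38.p14, at chr6:36678464-36678713 for CDKN1A and chr12:12717118-12717367 for CDKN1B, both on the plus strand. Capitals mark matches, on either strand, to the GC box GGGCGG or the CCAAT box.

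CDKN1A: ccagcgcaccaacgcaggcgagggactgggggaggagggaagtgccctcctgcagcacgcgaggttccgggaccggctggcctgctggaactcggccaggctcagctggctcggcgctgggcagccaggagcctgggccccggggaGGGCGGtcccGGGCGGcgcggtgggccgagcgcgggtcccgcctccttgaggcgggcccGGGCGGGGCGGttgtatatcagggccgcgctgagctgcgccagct

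CDKN1B: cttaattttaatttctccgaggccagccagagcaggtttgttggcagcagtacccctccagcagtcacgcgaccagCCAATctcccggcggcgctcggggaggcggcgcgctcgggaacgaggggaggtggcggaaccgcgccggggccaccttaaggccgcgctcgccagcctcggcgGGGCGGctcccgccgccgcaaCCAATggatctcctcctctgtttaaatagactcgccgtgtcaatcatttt

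A 300-base window from 250 bases before to 50 bases after the start held 4 matches to the GC box in CDKN1A, a pair of which overlap, and none to CCAAT. In CDKN1B the same window held 1 GC box and 3 CCAAT matches, 2 of them upstream of the start. Among all 35116 RefSeq windows of this length, 45.0% held a GC box and 34.6% held CCAAT. The palindromic glucocorticoid response element, found in 0.39% of all windows, was in neither of them, and nor were its half-site AGAACA (14.8% of windows), the MYC-type E-box CACGTG (7.26%), the E2F site TTTGGCGC (0.652%) or TATAAA (11.5%). These matches describe letters in a window and say nothing about binding. The windows of CCND3 and CCNE1 held none of these 5 either, and CCND1, CCND2, CCNE2, CDKN1C and MYC were not searched.

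The cell line and the ligand response were checked in the same tables. VIM and CD44, which mark this mesenchymal-like line, stood at 1267 to 1464 and 120 to 182 RPKM, whereas ESR1 and PGR, the oestrogen and progesterone receptor genes, did not exceed 0.0048 RPKM and SPARC, a marker of the mesenchymal state, did not exceed 0.273. Of markers of other cell types, PTPRC, CD3E, PECAM1 and CDH5 stayed at or below 0.324 RPKM, and the fibroblast genes COL1A1 and PDGFRB were at 1.23 to 2.60 and 1.47 to 2.28. The Dex-responsive genes TSC22D3 and FKBP5 rose by 5.06 and 3.50 on the log2 scale after Dex for 2 h (limma, adjusted p = 1.12e-09 and 6.12e-09). After CpdA for 2 h TSC22D3 rose by 0.44 (adjusted p = 0.00918) and FKBP5 differed by -0.10 (adjusted p = 0.466). After CpdA for 4 h they rose by 0.27 and 0.28 (limma adjusted p = 0.0299 and 0.0226). Relative sequencing depth, read from the smallest steps in the RPKM values, was 1 and 1.01 in the vehicle samples and 1.06 to 1.21 in the 8 treated samples, and its part in the results was not tested. The vehicle duplicates were also the widest apart for several of these genes, by 1.52-fold for CDKN1C, 1.22-fold for CDKN1A, 1.19-fold for MYC and 1.15-fold for CCNE1.

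In vehicle-treated cells the G1 genes covered a wide range of levels. CCND1 was the most abundant at 310.6 RPKM ± 23.4 (SD, n = 2) and lay at percentile 99.5 to 99.6 of all gene symbols. CDKN1A followed at 122.2 RPKM, MYC at 82.5 and CCND3 at 52.1, all at percentile 93.9 or above. CDKN1B at 14.3, CCNE2 at 10.6, CCNE1 at 7.83 and CDKN1C at 4.10 RPKM were moderately expressed, and CCND2 at 0.295 RPKM lay below the filter. RPKM is scaled by transcript length, so these levels can be set side by side.

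Compared with vehicle, 6 of the 8 tested genes changed after Dex for 2 h (2 higher and 4 lower) and all 8 after Dex for 4 h (4 higher and 4 lower), at an adjusted p under 0.05. Of all genes tested, 10.3% passed at 2 h (4.49% higher and 5.82% lower) and 27.4% at 4 h (9.26% higher and 18.2% lower). With CpdA, 3 of 8 passed at 2 h (2 higher, 1 lower) and 4 of 8 at 4 h (2 higher, 2 lower), beside 6.18% of all genes at 2 h (1.89% higher and 4.29% lower) and 20.5% at 4 h (6.76% higher and 13.8% lower). Higher genes thus made up 33.8%, 30.5% and 33.0% of all calls for Dex at 4 h and CpdA at 2 h and 4 h, and 49.9%, 44.6% and 55.8% after median scaling. Under median scaling every listed gene that passed kept its direction, while the CCND3 differences at 2 h, which did not pass, went from -0.01 to 0.00 with Dex and to 0.02 with CpdA. A change of more than 2-fold was seen for CDKN1A and CDKN1C at both times of Dex, where 2.01% and 3.78% of all genes changed that far, and for no listed gene with CpdA, where 0.488% and 0.889% did. The median log2 difference of the 8 genes was -0.20 and 0.01 for Dex at 2 h and 4 h and 0.07 and -0.14 for CpdA, next to -0.02, -0.05, -0.02 and -0.04 over all genes. These 4 comparisons share the same 2 vehicle samples. When each treated group was set against only the vehicle sample whose header names its time, 31 of 32 calls were unchanged, and CCNE2 after Dex for 2 h no longer passed (limma adjusted p = 0.0604).

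**Figure D1:**
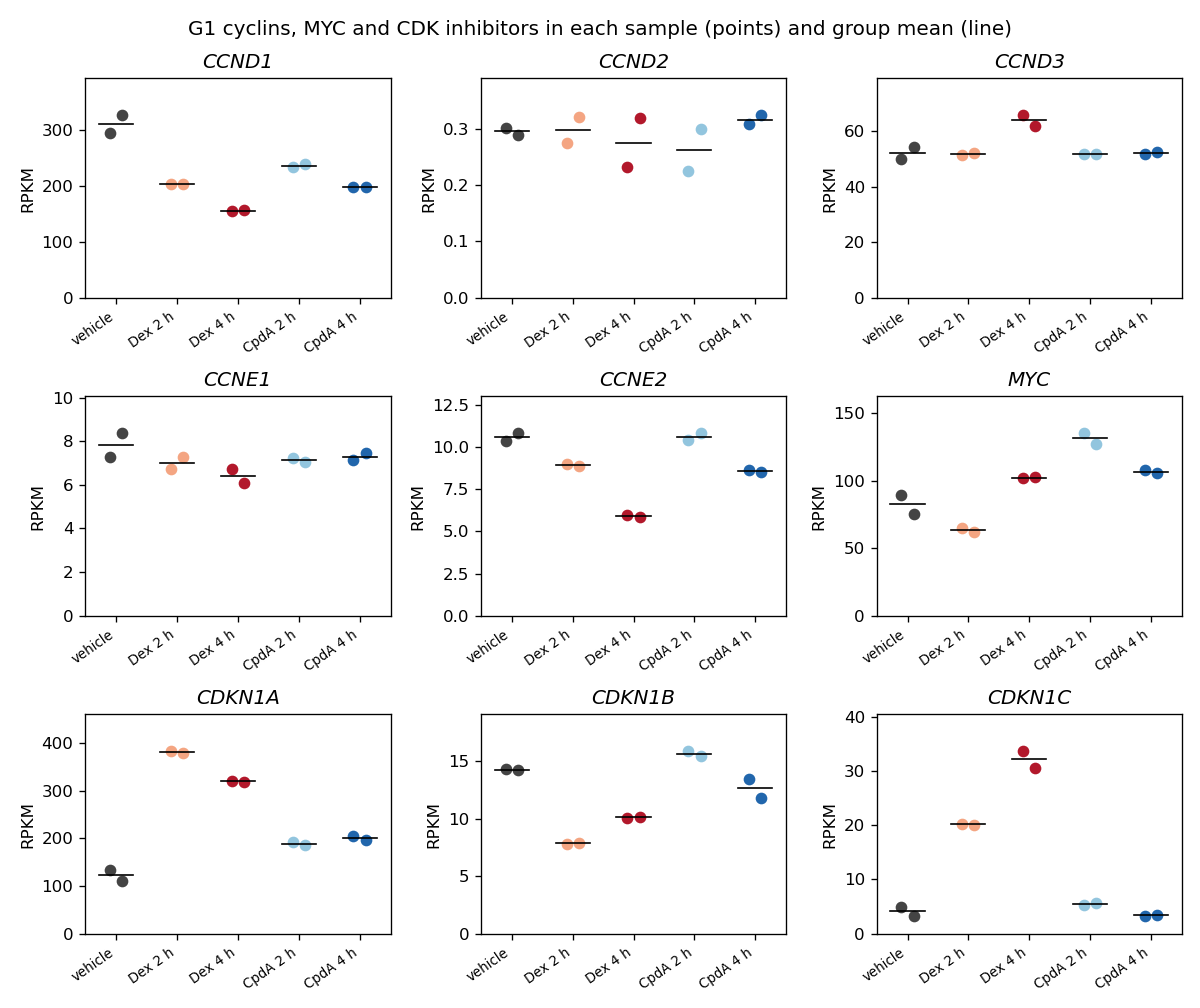
RPKM of the 9 genes in each of the 10 samples (vertical axes, each starting at 0), by group along the horizontal axis; points are samples and lines are group means. CCND1 falls below both vehicle samples in every treated group, CDKN1A lies above them, and CDKN1C is high only in the 4 Dex samples, at 20.1 to 33.7 RPKM.

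CCND1, the D-type cyclin that dominates in this line, was lower with both ligands at both times. Its RPKM was 294 and 327 in the vehicle samples, 204.0 and 204.3 after Dex for 2 h, and 155 and 156 after Dex for 4 h. In CpdA-treated cells it was 233 and 239 at 2 h and 199 and 198 at 4 h. No treated sample reached the lower vehicle value, and the groups ordered as vehicle, CpdA 2 h, Dex 2 h, CpdA 4 h and Dex 4 h from high to low. Of the neighbours in this order, Dex 2 h and CpdA 4 h were not tested against each other. Relative to vehicle CCND1 fell 1.52-fold after Dex for 2 h (log2 difference -0.60 ± 0.050 SE, limma adjusted p = 5.18e-05) and 1.99-fold after 4 h (-0.99 ± 0.050, adjusted p = 9.13e-07). CpdA lowered it 1.31-fold at 2 h (-0.39, adjusted p = 0.00238) and 1.56-fold at 4 h (-0.64, adjusted p = 7.41e-05).

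CCND3, the other D-type cyclin expressed at an appreciable level, rose only after Dex for 4 h among the 4 comparisons with vehicle. Its RPKM was 50.1 and 54.2 with vehicle, 51.4 and 51.9 after Dex for 2 h, 65.8 and 62.0 after Dex for 4 h, 51.6 and 51.7 after CpdA for 2 h, and 51.8 and 52.5 after CpdA for 4 h. Both 4 h Dex samples lay above the other 8. The increase was 1.23-fold (0.29 ± 0.047 SE on the log2 scale, limma adjusted p = 0.00158). The intervals of the other 3 differences ran from -0.12 to 0.10, -0.12 to 0.10 and -0.10 to 0.11.

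CCND2 was low and stayed below the 0.5 RPKM of the filter in every sample. Its RPKM was 0.301 and 0.289 with vehicle, 0.274 and 0.320 after Dex for 2 h, 0.232 and 0.319 after Dex for 4 h, 0.225 and 0.300 after CpdA for 2 h, and 0.308 and 0.324 after CpdA for 4 h. The groups overlapped or lay within the spread of a single pair. When all symbols were fitted without the filter, its log2 differences from vehicle ran from -0.13 to 0.07, with limma adjusted p of 0.777 to 1.

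CCNE2, an E-type cyclin that is itself an E2F target, fell with Dex at both times and with CpdA at 4 h. Its RPKM was 10.4 and 10.9 with vehicle, 8.99 and 8.90 after Dex for 2 h, and 5.97 and 5.84 after Dex for 4 h. After CpdA for 2 h it was 10.4 and 10.8, inside the vehicle range, and after CpdA for 4 h it was 8.65 and 8.54. The lowest values were thus the 4 h Dex samples, well separated from every other pair. CCNE2 fell 1.19-fold after Dex for 2 h (-0.25 ± 0.048 SE, limma adjusted p = 0.0103), 1.78-fold after Dex for 4 h (-0.83, adjusted p = 2.13e-06) and 1.23-fold after CpdA for 4 h (-0.30, adjusted p = 0.00256). The 2 h Dex call was lost when vehicle replicate 2 or either Dex 2 h sample was left out (adjusted p = 0.0604, 0.0683 and 0.0763). The gene spans of INTS8 and NDUFAF6, which reached 6.71 and 5.88 RPKM, overlap that of CCNE2 on the opposite strand. Whether their exons overlap was not examined. The strand setting of the counting is not given in the sources used here, so any reads from shared sequence cannot be told apart.

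CCNE1, the other E-type cyclin, changed less. Its RPKM was 7.29 and 8.38 with vehicle, 6.73 and 7.26 after Dex for 2 h, and 6.73 and 6.11 after Dex for 4 h. After CpdA it was 7.24 and 7.04 at 2 h and 7.13 and 7.47 at 4 h. The 8 treated values ran from 6.11 to 7.47, and of the 5 duplicate pairs that of vehicle was the widest apart (1.15-fold). A 1.22-fold decrease after Dex for 4 h passed the test (-0.28 ± 0.080 SE, limma adjusted p = 0.0274) but not without vehicle replicate 2 (adjusted p = 0.151) or Dex 4 h replicate 2 (adjusted p = 0.0931), nor after quantile normalization or median scaling (adjusted p = 0.138 and 0.105). The other 3 differences from vehicle were -0.16, -0.13 and -0.10 (adjusted p of 0.301 to 0.432).

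CDKN1A, which encodes p21, was higher with both ligands at both times. Its RPKM was 134 and 110.3 with vehicle, 383 and 379 after Dex for 2 h, and 321 and 318 after Dex for 4 h. CpdA gave 192 and 186 at 2 h and 205 and 196 at 4 h. All CpdA samples lay between the vehicle and Dex samples, without overlap. The increase over vehicle was 3.13-fold for Dex at 2 h (1.65 ± 0.077 SE, limma adjusted p = 1.12e-06) and 2.62-fold at 4 h (1.39, adjusted p = 1.66e-06). For CpdA it was 1.55-fold at 2 h (0.63, adjusted p = 0.00186) and 1.65-fold at 4 h (0.72, adjusted p = 0.000346).

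CDKN1C, which encodes p57, was strongly raised by Dex, and no change with CpdA passed the test against vehicle. Its RPKM was 4.95 and 3.25 with vehicle, 20.2 and 20.1 after Dex for 2 h, and 33.7 and 30.6 after Dex for 4 h. After CpdA it was 5.20 and 5.68 at 2 h and 3.31 and 3.40 at 4 h. Dex raised CDKN1C 4.92-fold at 2 h (2.30 ± 0.153 SE, limma adjusted p = 1.18e-05) and 7.83-fold at 4 h (2.97, adjusted p = 9.99e-07). The differences for CpdA were 0.43 at 2 h (adjusted p = 0.149) and -0.25 at 4 h (adjusted p = 0.291). Both depended on which vehicle sample was used. Without vehicle replicate 1 the 2 h difference was 0.72 (adjusted p = 0.0016), and with vehicle replicate 1 as the only control it was 0.13 (adjusted p = 0.569). Without vehicle replicate 2 the 4 h difference was -0.55 (adjusted p = 0.00296), and without vehicle replicate 1 it turned to 0.04 (adjusted p = 0.758).

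CDKN1B, which encodes p27, fell with Dex while its family members rose. Its RPKM was 14.3 and 14.2 with vehicle, 7.81 and 7.93 after Dex for 2 h, and 10.04 and 10.2 after Dex for 4 h. After CpdA it was 15.9 and 15.4 at 2 h and 13.5 and 11.8 at 4 h. The 4 Dex samples were the lowest, with those of 2 h below those of 4 h. The decrease from vehicle was 1.80-fold at 2 h (-0.85 ± 0.062 SE, limma adjusted p = 2.03e-05) and 1.41-fold at 4 h (-0.49, adjusted p = 0.000327). For CpdA the differences were 0.13 (adjusted p = 0.273) and -0.18 (adjusted p = 0.0757), and the latter passed when CpdA 4 h replicate 1 was left out (-0.27, adjusted p = 0.0251).

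MYC was the one gene of the 8 with calls of opposite sign at the 2 times of Dex. Its RPKM was 89.7 and 75.3 with vehicle, 64.7 and 61.8 after Dex for 2 h, and 102 and 102 after Dex for 4 h. CpdA gave 136 and 128 at 2 h and 108 and 106 at 4 h. The 2 h Dex samples were below both vehicle samples and the other 6 treated samples were above them. MYC fell 1.30-fold after Dex for 2 h (-0.38 ± 0.073 SE, limma adjusted p = 0.00968) and rose 1.24-fold after Dex for 4 h (0.31, adjusted p = 0.0116). With CpdA it rose 1.60-fold at 2 h (0.68, adjusted p = 0.00102) and 1.30-fold at 4 h (0.38, adjusted p = 0.00696). Neither Dex call passed without variance moderation (limma adjusted p = 0.0796 and 0.0625). The same held when only the 4 samples compared were fitted (limma adjusted p = 0.0528 and 0.0617). The 2 h Dex call was lost without Dex 2 h replicate 2 (adjusted p = 0.0789), and the 4 h CpdA call without CpdA 4 h replicate 1 (adjusted p = 0.0559).

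**Figure D2:**
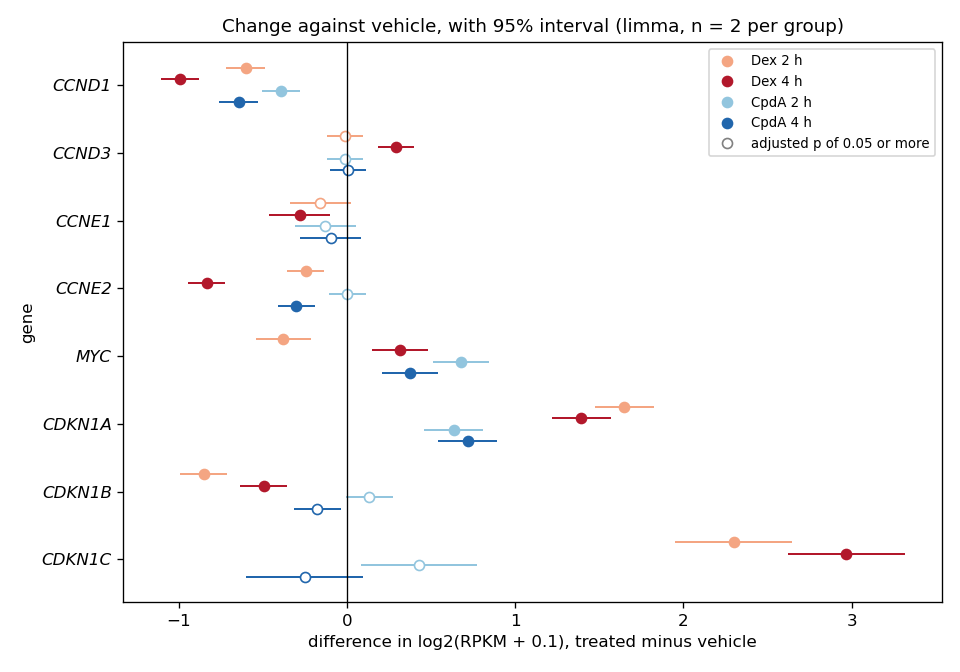
Difference from vehicle in log2(RPKM + 0.1) for the 8 tested genes (horizontal axis), with 95% intervals from limma, for Dex and CpdA at 2 h and 4 h; filled points have an adjusted p under 0.05. CDKN1A and CDKN1C lie farthest to the right with Dex (1.39 to 2.97), CCND1 is left of 0 in all 4 comparisons, and MYC is left of 0 only for Dex at 2 h.

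Dex and CpdA were then set against each other at the same time point, which leaves the vehicle samples out of the difference. At 2 h, 6 of the 8 genes differed (2 higher and 4 lower with Dex) beside 13.7% of all genes (7.53% higher and 6.18% lower), and at 4 h 6 differed (3 higher and 3 lower) beside 33.4% (15.4% higher and 18.0% lower). CDKN1C showed the widest gap of the 8 genes, 3.66-fold higher with Dex at 2 h (1.87 ± 0.153 SE, limma adjusted p = 3.68e-05) and 9.33-fold higher at 4 h (3.22, adjusted p = 5.21e-07). CDKN1A was 2.02-fold and 1.59-fold higher with Dex (adjusted p = 2.29e-05 and 0.00016). CDKN1B was 1.98-fold and 1.25-fold lower (adjusted p = 6.23e-06 and 0.00357).

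Among the cyclins, CCNE2 was lower with Dex than with CpdA by 1.19-fold at 2 h and 1.45-fold at 4 h (limma adjusted p = 0.00824 and 3.38e-05), and CCND1 by 1.16-fold and 1.27-fold (adjusted p = 0.0233 and 0.000665). The 2 h differences of both were lost when single samples were left out. For CCNE2 these were Dex 2 h replicates 1 and 2 and CpdA 2 h replicate 2 (adjusted p of 0.0551 to 0.0940), and for CCND1 any of the 4 samples compared (adjusted p of 0.101 to 0.164). CCND3 did not differ past the threshold at 2 h (interval -0.11 to 0.11 on the log2 scale) and was 1.22-fold higher with Dex at 4 h (adjusted p = 0.00133). CCNE1 did not pass at either time, with intervals of -0.21 to 0.15 at 2 h and -0.36 to -0.0039 at 4 h.

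MYC separated the ligands at 2 h, when it was 2.08-fold lower with Dex (-1.06 ± 0.073 SE, limma adjusted p = 1.23e-05). At 4 h the difference was -0.06, with an interval of -0.23 to 0.10 (adjusted p = 0.561). Because the doses were 100 nM and 10 μM, these values compare the treatments as given.

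The change from 2 h to 4 h was examined within each ligand, again without the vehicle samples. With Dex, 6 of 8 genes changed (4 higher and 2 lower at 4 h) beside 13.6% of all genes (4.55% higher and 9.02% lower, of which higher genes were 33.5%, or 53.3% after median scaling). MYC rose 1.62-fold (0.69 ± 0.073 SE, limma adjusted p = 0.000536), CDKN1C 1.59-fold (0.67, adjusted p = 0.0223), CDKN1B 1.28-fold (0.36, adjusted p = 0.00623) and CCND3 1.24-fold (0.30, adjusted p = 0.0037). CCNE2 fell a further 1.51-fold (-0.59, adjusted p = 0.000175) and CCND1 1.31-fold (-0.39, adjusted p = 0.00144). The difference for CDKN1A was -0.26 (adjusted p = 0.0601), and it passed when either vehicle sample was left out of the shared fit (adjusted p = 0.00514 and 0.00521). The CDKN1C call was lost without Dex 2 h replicate 1 or 2 or Dex 4 h replicate 1 (adjusted p of 0.0902 to 0.113), and that of CDKN1B without Dex 2 h replicate 1 (adjusted p = 0.0556).

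With CpdA, 5 of 8 genes were lower at 4 h than at 2 h and none was higher, beside 12.4% of all genes (5.21% higher and 7.2% lower, of which higher genes were 42.0%, or 54.6% after median scaling). The decreases were 1.60-fold for CDKN1C (-0.68, limma adjusted p = 0.0224), 1.24-fold for CDKN1B (-0.31, adjusted p = 0.0142), 1.23-fold for CCNE2 (-0.30, adjusted p = 0.0062), 1.23-fold for MYC (-0.30, adjusted p = 0.0298) and 1.19-fold for CCND1 (-0.25, adjusted p = 0.0145). When any 1 of the 4 CpdA samples was left out, 0 or 1 of the 8 genes remained past the threshold, and the calls over all genes dropped from 1577 to between 261 and 299. The differences themselves stayed at -0.62 to -0.74 for CDKN1C, -0.21 to -0.40 for CDKN1B, -0.27 to -0.33 for CCNE2, -0.26 to -0.34 for MYC and -0.23 to -0.27 for CCND1 in these fits. The headers call vehicle replicates 1 and 2 controls of 2 h and 4 h. From replicate 1 to 2, CDKN1C went from 4.95 to 3.25 RPKM, MYC from 89.7 to 75.3 and CDKN1B from 14.3 to 14.2. In the other direction, CCNE2 went from 10.4 to 10.9 and CCND1 from 294 to 327. The part of time without ligand was not tested.

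The interaction term, which subtracts the time change in CpdA from that in Dex, passed the test for 5 of the 8 genes (4 positive and 1 negative), beside 6.6% of all genes (3.04% positive and 3.56% negative). It was 1.35 ± 0.22 SE for CDKN1C (limma adjusted p = 0.00799), 0.99 ± 0.10 for MYC (adjusted p = 0.00127), 0.67 ± 0.087 for CDKN1B (adjusted p = 0.00313), 0.29 for CCND3 (adjusted p = 0.0357) and -0.29 for CCNE2 (adjusted p = 0.0402). For CDKN1C, MYC and CDKN1B the time change thus had opposite signs in the 2 ligands, and both signs were past the threshold in the main fit. Their CpdA calls, and the Dex calls of CDKN1C and CDKN1B, were lost when certain single samples were left out, with the signs kept. In limma without variance moderation the CDKN1C term did not pass (adjusted p = 0.0763). Nor did the CpdA time changes of CDKN1C, MYC and CDKN1B then pass (adjusted p = 0.112, 0.114 and 0.0569). The CCND3 term was lost without moderation, without a variance trend and without the filter (limma adjusted p = 0.0935, 0.0792 and 0.0646). After median scaling the CCND3 and CCNE2 terms did not pass (limma adjusted p = 0.0519 and 0.0745). The CCNE2 term also failed after quantile normalization and with a pseudocount of 1 (limma adjusted p = 0.0700 and 0.0511). The CCND3 and CCNE2 terms were lost without either Dex 2 h sample, either CpdA 2 h sample or either CpdA 4 h sample, and that of CCND3 also without Dex 4 h replicate 1 (adjusted p of 0.0596 to 0.148 and 0.106 to 0.192). For CCND1 the term was -0.14 (adjusted p = 0.322), for CCNE1 -0.15 (adjusted p = 0.502) and for CDKN1A -0.34 (adjusted p = 0.112, or 0.012 when either vehicle sample was left out of the shared fit).

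**Figure D3:**
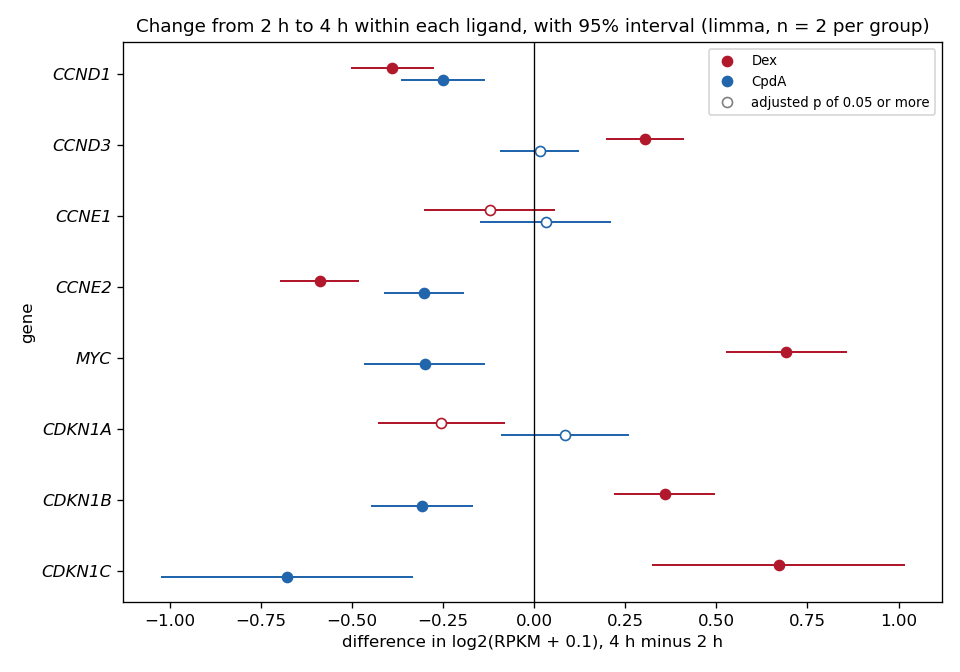
Difference between 4 h and 2 h in log2(RPKM + 0.1) within Dex and within CpdA for the 8 tested genes (horizontal axis), with 95% intervals from limma; filled points have an adjusted p under 0.05. For CDKN1C, MYC and CDKN1B the Dex point lies to the right of 0 and the CpdA point to the left, while CCND1 and CCNE2 lie to the left for both.

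The balance of inhibitor and cyclin transcripts was summarised in each sample from the same RPKM values, as a description without a test. The ratio of CDKN1A to CCND1 was 0.456 and 0.337 with vehicle, 1.88 and 1.86 after Dex for 2 h, and 2.06 and 2.04 after Dex for 4 h. With CpdA it was 0.821 and 0.780 at 2 h and 1.03 and 0.989 at 4 h. The groups did not overlap, and CDKN1A exceeded CCND1 in all 4 Dex samples and in 1 of the CpdA samples. The summed RPKM of the 3 CIP/KIP inhibitors averaged 140.6 with vehicle, 409 and 362 with Dex at 2 h and 4 h, and 210.0 and 216 with CpdA. CDKN1A made up 86.9% to 93.2% of this sum in every group. The share of CDKN1B dropped from 10.2% with vehicle to 1.92% and 2.80% with Dex and was 7.46% and 5.85% with CpdA, while that of CDKN1C was 2.89% with vehicle, 4.92% and 8.89% with Dex, and 2.59% and 1.55% with CpdA. Among the 5 cyclins together, CCND1 accounted for 81.4% of the summed RPKM with vehicle, 75.0% and 67.1% with Dex, and 77.2% and 74.4% with CpdA.

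**Figure D4:**
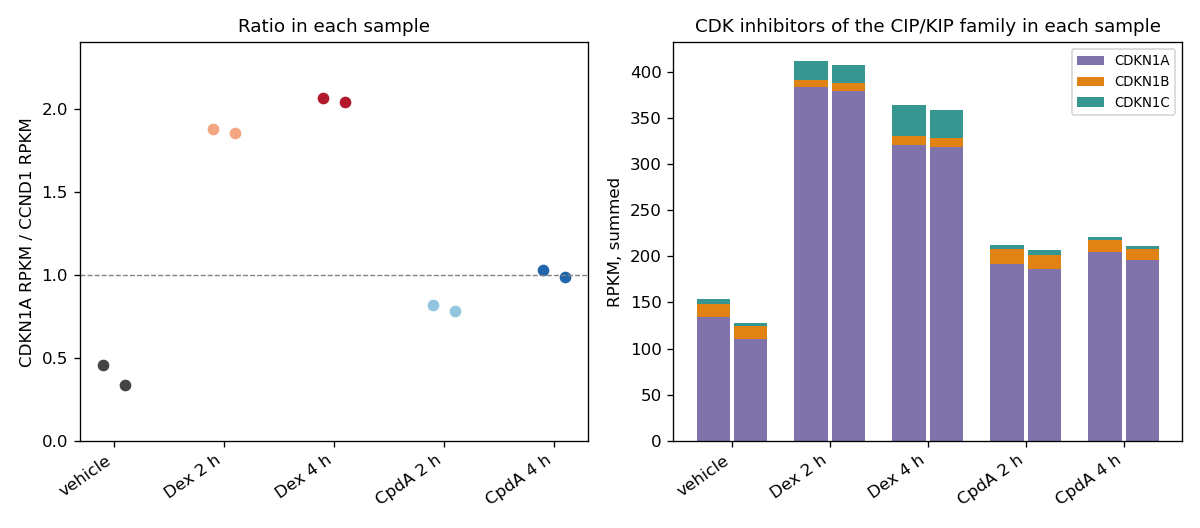
Left, the ratio of CDKN1A to CCND1 RPKM in each sample (points) by group, with a dashed line at 1; right, stacked RPKM of CDKN1A, CDKN1B and CDKN1C in each sample (bars from 0). The ratio rises from 0.337 and 0.456 with vehicle to 1.86 to 2.06 with Dex, and CDKN1A forms most of every bar.

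The genes whose profile over the 10 samples was most like each member were listed among 11377 genes with a mean RPKM of at least 1, by Pearson correlation of log2 values. The samples come in pairs and the treatments are shared, so these values only describe the shape of the profiles. CCNE2 was closest to E2F1, the founding E2F factor (r = 0.989), then PDXP (0.984) and ICK (0.980). CCND1 was closest to SAMD10 (0.991), FZD8 (0.989), a Wnt receptor, and COL1A1 (0.987), and CDKN1C to ITGA5 (0.992), an integrin subunit, KLHL4 (0.992) and THRA (0.991), a thyroid hormone receptor. CDKN1A lay nearest to TXNIP (0.970), TOP1 (0.964) and LBH (0.964), and CDKN1B to C10orf88 (0.977), IER2 (0.961), an immediate early gene, and CEP85 (0.951). CCND3 was most like DNAJB12 (0.972), CPNE7 (0.965) and LDLRAD3 (0.963). The profiles of MYC and CCNE1 had looser neighbours, PIP5K1A (0.949), WDR47 (0.936) and SIRT1 (0.896) for MYC and COPS7B (0.938), COPRS (0.929) and ING2 (0.922) for CCNE1.

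The genes that act next to the members were taken from lists made by their known roles, also with earlier results of these data known. Their counts of calls stand beside 10.3% of all genes for Dex at 2 h (5.82% lower), 27.4% for Dex at 4 h (18.2% lower), 6.18% for CpdA at 2 h (4.29% lower) and 20.5% for CpdA at 4 h (13.8% lower). At 4 h the median log2 difference from vehicle with Dex and CpdA was -0.11 and -0.05 for the G1 kinases, -0.28 and -0.12 for the retinoblastoma and E2F family, -0.21 and -0.19 for the E2F targets, and -0.03 and 0.02 for the turnover genes. It was -0.12 and -0.36 for the other CDK inhibitor genes, -0.04 and -0.05 for the MYC partners, -0.09 and 0.08 for the MYC targets and -0.23 and -0.03 for the p53 targets, next to -0.05 and -0.04 over all genes. After median scaling the medians of the MYC partners (both ligands), the turnover genes (Dex) and the G1 kinases and p53 targets (CpdA) took the opposite sign. Of 7 genes for the G1 kinases and their activators, 1 was lower after Dex for 2 h and 2 after Dex for 4 h, and with CpdA 1 and 2 were lower. The 4 h shares, 28.6% with each ligand, were near those of all genes (27.4% and 20.5%). After quantile normalization 3 were lower and 1 higher for Dex at 4 h, after median scaling 1 and 1, and for CpdA at 4 h 1 was lower after either. CDC25A, the phosphatase that activates CDK2, fell with Dex (-0.52 and -0.81 on the log2 scale, limma adjusted p = 0.000689 and 1.76e-05) and by 0.21 after CpdA for 4 h (adjusted p = 0.0441), although this last call was lost after quantile normalization or median scaling (adjusted p = 0.0904 and 0.121) and without either vehicle sample or any of the 4 CpdA samples (adjusted p of 0.0798 to 0.229). CDK6, a partner of the D-type cyclins, fell with CpdA (-0.78 and -0.49, adjusted p = 0.00938 and 0.0272), and its differences for Dex were 0.35 and 0.39 (adjusted p = 0.146 and 0.055). The 4 h Dex difference passed after quantile normalization (0.45, adjusted p = 0.0326) and median scaling (0.46, adjusted p = 0.0256), and without vehicle replicate 2 (adjusted p = 0.0432) or Dex 4 h replicate 1 (adjusted p = 0.00266), and that at 2 h without Dex 4 h replicate 1 or 2 (adjusted p = 0.0218 and 0.0224). Both CDK6 calls for CpdA were lost without vehicle replicate 2 (adjusted p = 0.0742 and 0.144) and without either CpdA sample of the same time (adjusted p of 0.0678 to 0.132).

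Among 13 genes of the retinoblastoma family, the E2F factors and their DP partners, 3 were lower after Dex for 2 h and 8 after Dex for 4 h (6 after either rescaling), and with CpdA 0 and 4 were lower (the latter 3 after median scaling). None was higher in these 4 comparisons. E2F7, an atypical E2F that represses E2F targets, stood at 37.7 RPKM in both vehicle samples, 13.2 and 15.0 after Dex for 2 h, and 7.22 and 8.62 after Dex for 4 h, and at 37.9 to 40.2 in the 4 CpdA samples. Its log2 decreases with Dex were -1.42 and -2.24 (limma adjusted p = 5.66e-06 and 1.58e-07). E2F2, an activating E2F, fell after 4 h of Dex (-0.95, adjusted p = 0.000329) and of CpdA (-0.98, adjusted p = 0.000612), and E2F5, a repressive E2F, with Dex at both times (-0.40 and -0.66, adjusted p = 0.00968 and 0.000227). The 2 h call of E2F5 was lost without vehicle replicate 2 or either Dex 2 h sample (adjusted p of 0.0582 to 0.0690).

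Of 10 E2F target genes of DNA replication, none changed at 2 h with either ligand, 8 were lower after Dex for 4 h and 6 lower and 1 higher after CpdA for 4 h. Median scaling left 3 lower with each ligand, whereas these 4 h counts were the same after quantile normalization. CDC6, which loads the replicative helicase, fell after Dex for 4 h (-0.86, limma adjusted p = 1.31e-05) and rose after CpdA for 4 h (0.27, adjusted p = 0.0173). The CpdA call was lost without vehicle replicate 2 (adjusted p = 0.0841) or either CpdA 4 h sample (adjusted p = 0.0963 and 0.0900). Of 11 genes for the turnover of cyclins, inhibitors and MYC, 1 rose and 2 fell after Dex for 4 h, as 1 and 2 did after CpdA for 4 h, and at 2 h the counts were 0 with Dex and 1 lower with CpdA. The 4 h share, 27.3% with each ligand, was close to that of all genes (27.4% and 20.5%). DTL, a substrate receptor through which p21 is degraded, fell after 4 h of Dex (-1.02, adjusted p = 2.18e-06) and of CpdA (-0.35, adjusted p = 0.00329). SKP2, which directs p27 to degradation, also fell at 4 h with each (-0.63 and -0.62, adjusted p = 0.00186 and 0.00335). Its 2 h CpdA difference was -0.41 (adjusted p = 0.0523) and passed with the replicate block (limma adjusted p = 0.0267). Of 3 other CDK inhibitor genes analysed, 1 was lower after Dex for 4 h and 2 after CpdA for 4 h.

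Of 10 tested MYC partners and antagonists, 2 were lower after Dex for 2 h, 2 higher and 1 lower after Dex for 4 h, and 1 and 2 higher with CpdA, which is 30% and 20% at 4 h with Dex and CpdA against 27.4% and 20.5% of all genes. MXD1, which competes with MYC for its partner MAX, rose with CpdA from 2.95 and 3.93 RPKM with vehicle to 5.78 and 6.02 at 2 h and 8.91 and 9.30 at 4 h (0.78 and 1.39, limma adjusted p = 0.00681 and 0.00011). Its differences for Dex were -0.44 and -0.14 (adjusted p = 0.0518 and 0.425), which became -0.64 and -0.35 without vehicle replicate 1 (adjusted p = 0.00342 and 0.0316). The 2 h Dex difference also passed without Dex 4 h replicate 1 or 2 (adjusted p = 0.0390 and 0.0398), and the 2 h CpdA call was lost without either CpdA 2 h sample (adjusted p = 0.0518 and 0.0656). Of 15 MYC target genes of ribosome and nucleotide synthesis, 3 and 5 were lower with Dex at 2 h and 4 h and none higher, 1 was lower with CpdA at 2 h, and 3 were higher and 1 lower with CpdA at 4 h. The 4 h shares of 33.3% and 26.7% stand beside 27.4% and 20.5% of all genes. RRS1, needed for ribosome assembly, was lower in all 4 comparisons (-0.46 to -0.66, adjusted p of 0.00102 or less), and PPAT, the first enzyme of purine synthesis, with Dex (-0.38 and -0.68, adjusted p = 0.0173 and 0.000265). The 2 h call of PPAT was lost without vehicle replicate 2 or either Dex 2 h sample (adjusted p of 0.0798 to 0.111).

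CDKN1A is also a classic p53 target, and 15 other p53 targets were examined beside it. With Dex 1 rose and 4 fell at 2 h and 4 rose and 6 fell at 4 h, and with CpdA 2 rose and 3 fell at each time. The shares that passed were 33.3% and 66.7% with Dex, beside 10.3% and 27.4% of all genes, and 33.3% at both times of CpdA, beside 6.18% and 20.5%. GADD45A, a stress-response gene, was higher in all 4 comparisons (0.92, 0.58, 1.04 and 0.53, limma adjusted p of 0.00437 to 0.0404), from vehicle values of 52.2 and 81.0 RPKM. Its call for CpdA at 4 h was lost without any 1 of Dex 2 h replicate 1 or 2, CpdA 2 h replicate 1 or 2, or CpdA 4 h replicate 1 or 2 (adjusted p of 0.0634 to 0.181), and that for Dex at 4 h without Dex 4 h replicate 1 (adjusted p = 0.0801). Without variance moderation none of the 4 GADD45A calls held (limma adjusted p = 0.0689 and 0.109 for Dex, 0.0748 and 0.154 for CpdA). Its 4 h calls with Dex and CpdA were also lost without the filter (limma adjusted p = 0.0760 and 0.120). The same held when only the 4 samples compared were fitted (limma adjusted p = 0.0680 and 0.104). SESN2, a stress-induced sestrin, fell with Dex at 2 h (-0.55, adjusted p = 0.00467) and rose with CpdA (0.86 and 0.98, adjusted p = 0.00102 and 0.000177). Without variance moderation the 2 h Dex call of SESN2 did not pass (limma adjusted p = 0.0586). Its 4 h Dex difference was -0.28 (adjusted p = 0.0511) and passed with a pseudocount of 1 (limma adjusted p = 0.0492). TP53I3, an oxidoreductase gene, rose after Dex for 4 h (1.00, adjusted p = 2.16e-05). Its 2 h Dex difference was 0.29 (adjusted p = 0.0580) and passed after quantile normalization (limma adjusted p = 0.0379). ZMAT3, an RNA-binding protein gene, and PLK3, a kinase gene, fell in all 4 comparisons, with log2 differences of -0.55 to -1.26 (adjusted p of 0.00402 or less) and -0.53 to -1.05 (adjusted p of 0.0311 or less). The call of PLK3 for CpdA at 2 h was lost without vehicle replicate 1 or 2 or either CpdA 2 h sample (adjusted p of 0.0613 to 0.182).

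**Figure D5:**
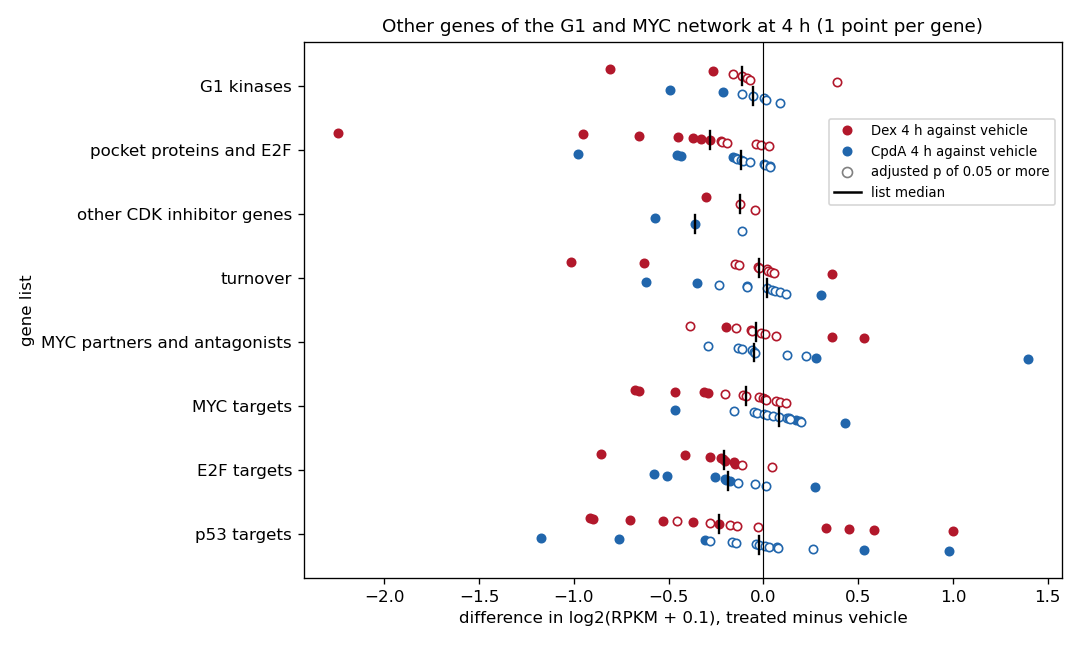
Difference from vehicle at 4 h in log2(RPKM + 0.1) for each gene of 8 lists (1 point per gene, Dex in red and CpdA in blue), with the median of each list as a bar; filled points have an adjusted p under 0.05. E2F7 is the leftmost point with Dex (-2.24), 8 of 10 E2F targets are filled and left of 0 with Dex, and MXD1 is the rightmost point with CpdA (1.39).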

How the data were processed

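RNA was measured by RNA-seq (TruSeq RNA kit, single-end reads) in 10 MDA-MB-231 samples. Per the labels and the study's methods, the authors aligned reads with TopHat2 2.0.13 to hg19 and deposited 1 RPKM value per gene symbol and sample, with Partek 6.6 among the tools named. RPKM is not a count, and absolute depth is unknown. Groups were taken from the labels.

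From the deposited RPKM values, log2(RPKM + 0.1) was fitted with limma 3.58.1 (R 4.3.3, moderated variance with a trend) in a single model of 5 groups over the 12713 genes that reached 0.5 RPKM in at least 2 samples. P-values were Benjamini-Hochberg adjusted over these genes for each comparison and are two-sided, and adding 0.1 understates changes of low genes. The replicates are described as biological. The code was tested on simulated data. The members and lists were chosen with earlier results of these data known. From each list, genes past an adjusted p of 0.05 and 1.5-fold in any comparison with vehicle were named, at most 5. Alternatives covered the pseudocount, filter, scaling, variance model, replicate block and each left-out sample. Gene coordinates are from the GENCODE annotation lifted to GRCh37. The ChIP libraries of the series were not used here.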

Additional observations from a re-analysis of the deposited data

Results flagged for a closer look

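The genes below differed between time points of 1 ligand, or in their time change between the ligands, at a limma adjusted p under 0.05. Values are log2 differences from 2 groups of 2 samples or, for the ligands, of 4 groups.

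From 2 h to 4 h of Dex, MYC (0.69), CDKN1C (0.67), CDKN1B (0.36) and CCND3 (0.30) rose and CCNE2 (-0.59) and CCND1 (-0.39) fell. From 2 h to 4 h of CpdA, CDKN1C (-0.68), CDKN1B (-0.31), CCNE2 (-0.30), MYC (-0.30) and CCND1 (-0.25) fell. The time change in Dex minus that in CpdA was 1.35 for CDKN1C, 0.99 for MYC, 0.67 for CDKN1B, 0.29 for CCND3 and -0.29 for CCNE2. With 2 samples a group, no test for a stray sample could be applied.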

How the results depend on the processing

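Over 72 combinations of gene and comparison and 20 alternatives, 1328 of 1432 values kept their direction and side of the threshold, 79 lost the call and 9 gained it. The sign turned in 16, none of which passed in either fit. Of these, CCND3 against vehicle was -0.0147 for CpdA 4 h after quantile normalization and 0.00422 for Dex 2 h and 0.0230 for CpdA 2 h after median scaling, under which CCND3 for Dex against CpdA at 2 h was -0.0188. The other 12 came with a sample left out. Over those fits CCND3 against vehicle ran from -0.0676 to 0.0457 for Dex 2 h, from -0.0676 to 0.0456 for CpdA 2 h and from -0.0533 to 0.0599 for CpdA 4 h, and for Dex against CpdA at 2 h from -0.00740 to 0.00756. CCNE2 for CpdA 2 h ran from -0.0298 to 0.0333 and CDKN1C for CpdA 4 h from -0.548 to 0.0443. CCNE1 ran from -0.198 to 0.00216 for CpdA 4 h, from -0.0846 to 0.0241 for Dex against CpdA at 2 h and from -0.00193 to 0.0636 for CpdA 4 h against 2 h. The members called at 4 h against 2 h of CpdA, 5 of 8, became 3 without the filter, 1 without variance moderation and 0 to 5 with a sample left out; for the interaction, 5 became 3 after median scaling, 3 without moderation and 3 to 6 with a sample left out. Left-out samples gave 4 to 6 for Dex at 2 h, 7 to 8 for Dex at 4 h, 3 to 4 and 4 to 5 for CpdA, 4 to 6 and 6 for Dex against CpdA, and 4 to 7 for the times of Dex, with a lone sample assumed to vary like the other groups. MYC against vehicle lost its Dex calls without moderation (adjusted p = 0.0796 and 0.0625) and when only the 4 samples compared were fitted (0.0528 and 0.0617). The cause was not tested.

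Samples of the same replicate number deviated together weakly or not at all (correlation of deviations -0.057 to 0.198, mean 0.054, over 0.1 in 3 of 10 pairs of groups). Whether the replicate numbers pair the samples is not known. With the replicate block, CDKN1A at 4 h against 2 h of Dex passed (adjusted p = 0.0368) and no other member's call changed. The all-gene calls for Dex and CpdA against vehicle rose from 1311, 3487, 786 and 2609 to 1454, 3763, 918 and 2884.

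Over all genes, counts of calls moved by more than 1.5 times as follows. Fitting only the 4 samples compared gave 1775 in place of 3487 (Dex 4 h against vehicle), 480 in place of 786 (CpdA 2 h), 696 in place of 1725 (times of Dex) and 3500 in place of 1577 (times of CpdA). Without moderation the counts were 368, 993 and 827 for the last 3 and 423 in place of 839 for the interaction. With a sample left out they ran from 216 to 1446 (CpdA 2 h), 1190 to 3637 (CpdA 4 h, main 2609), 766 to 1710 (Dex 2 h, main 1311), 959 to 2297 and 2759 to 5183 (Dex against CpdA at 2 h and 4 h, main 1743 and 4241), 592 to 3440 (times of Dex), 261 to 2500 (times of CpdA) and 293 to 2132 (interaction).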
